A study of Mus musculus with 6 samples.

Results

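The genes described here make the membrane of the red cell and bring iron into it. The 9 members, *Ank1*, *Slc4a1*, *Rhag*, *Rhd*, *Kel*, *Tfrc*, *Slc25a37*, *Slc11a2* and *Steap3*, were taken by symbol from a table of 24207 loci, each matched 1 locus, and all 9 had a mean of at least 1 FPKM. FPKM counts the fragments of a transcript scaled by its length and by all mapped fragments, so levels can be compared between genes. RNA-seq was performed on 6 male embryos at E9.5, 3 Smchd1+/+ (wildtype) and 3 Smchd1MommeD1/MommeD1. MommeD1 is a chemically induced mutant allele of *Smchd1*, a chromatin protein needed for X inactivation, and both groups came from matings between heterozygotes. By the labels, genotypes were read from the yolk sac. The sample labels give the background as C57Bl6/J x FVB/n for both genotypes, whereas the study's text names another strain to which the allele had been backcrossed, and the effect of background was not tested. *Smchd1* itself was at 2.12 FPKM in Smchd1MommeD1/MommeD1 and 34.0 FPKM in wildtype embryos.

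The values are 1 FPKM per genotype, pooled by the authors over the embryos of that genotype. Values per embryo were not used here, so no difference below could be set against the spread between embryos, and no test was made. Log2 ratios are for Smchd1MommeD1/MommeD1 over wildtype embryos with 0.1 FPKM added to each value. As a scale for a ratio, the central 90% of log2 ratios is given for loci whose mean FPKM lay within 2-fold of that of the gene. That range describes other genes and is not an error of the gene itself.

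At this stage the blood of the embryo holds mainly primitive erythroid cells, which are made in the yolk sac and mature while they circulate. A maturing red cell builds a membrane skeleton of spectrin that is tied to the lipid bilayer through ankyrin and the anion exchanger band 3, with the Rh proteins in the same complex. Iron for heme arrives bound to transferrin, is taken in by the transferrin receptor, reduced and released in the endosome, and passed to mitochondria by mitoferrin.

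In the Smchd1MommeD1/MommeD1 embryos 4 of the 9 genes, all of them membrane genes, were at least 1.5-fold higher, and none was 1.5-fold lower. Of the 12463 loci whose mean reached 1 FPKM, 3.51% were higher by that fold and 1.47% were lower. The highest log2 ratios were those of the Rh genes *Rhd* and *Rhag*, followed by *Slc4a1* and *Ank1*. The iron gene *Steap3* came next at 0.56, close below *Ank1* at 0.65. The genes for transferrin uptake, iron export from the endosome and mitochondrial import were near 0, and the membrane gene *Kel* was at 0.16. The median log2 ratio over the 9 genes was 0.56, against -0.0076 over all loci. Over the 4 genes whose mean reached 5 FPKM the median was 0.056, and 1 of these, *Slc4a1*, was at least 1.5-fold higher. The 5 membrane genes had a median of 0.73 and summed to 47.6 FPKM in Smchd1MommeD1/MommeD1 and 28.4 FPKM in wildtype embryos. The 4 iron genes had a median of 0.06 and summed to 94.0 and 91.9 FPKM. RNA came from all tissues of the embryo together, so that more (or fewer) cells of a type and more (or less) RNA per cell cannot be told apart.

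**Figure D1:**
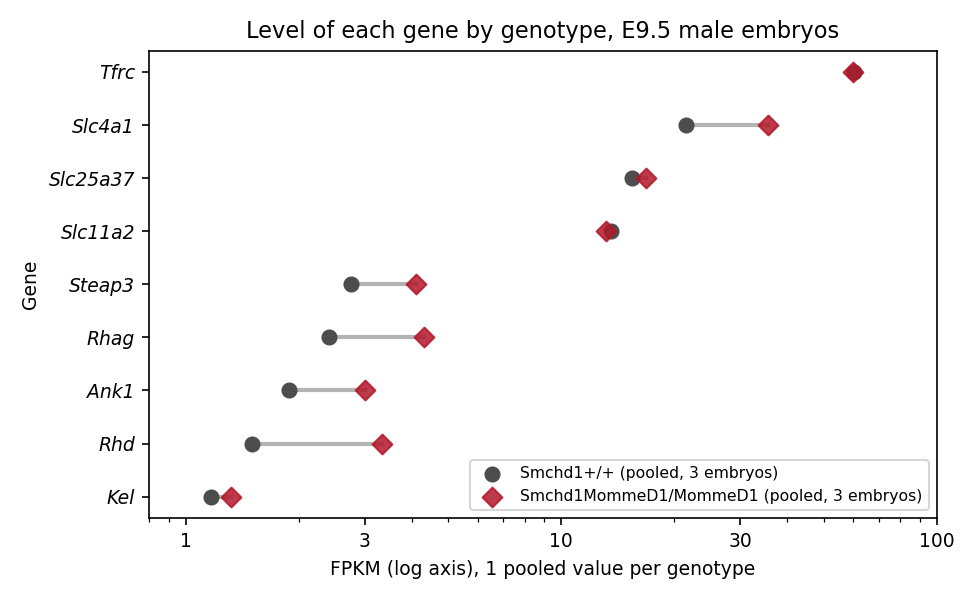
Level of each of the 9 genes, in FPKM on a log axis, with a circle for the pooled wildtype value and a diamond for the pooled Smchd1MommeD1/MommeD1 value. The 2 marks of *Tfrc* lie on each other at 60.0 and 60.1 FPKM, whereas those of *Rhd*, at 3.34 and 1.499 FPKM, are the farthest apart.

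Sequences are shown for promoters and for transcripts. The first set comes from promoters, since GATA1, the main transcription factor of red cells, binds sites with the core letters GATA. RefSeq windows of 300 bases, from 250 before to 50 after a transcript start (build GRCm38.p6), were found for 5 of the 9 genes and numbered 9. *Ank1*, *Slc4a1*, *Slc25a37* and *Slc11a2* were not matched. The letters GATAA, searched on both strands, were present in a window of *Rhd*, *Rhag*, *Kel* and *Steap3* and in neither window of *Tfrc*, and 25.4% of all 32851 windows held them. *Steap3* has 4 windows and so had more chances of a match. The windows of 30 bases are printed 5′ to 3′ along the gene, with the match in capitals (TTATC is the motif on the other strand). For *Steap3* the match of the most upstream of its window starts is shown. Distances are to the start used for the window, and earlier starts are annotated for *Rhag*, *Kel* and *Steap3*. The 200 bases of the *Rhag* window before its earliest annotated start held no match, and the 236 such bases of *Kel* held 1.
Steap3, chr1:120271108-120271137, minus strand, motif 45 bases upstream: gtccggagagtgTTATCtccctccagttat
Rhd, chr4:134864482-134864511, plus strand, motif 42 bases upstream: ccggcagcctgaGATAAgacctttggcggg
Kel, chr6:41704363-41704392, minus strand, motif 55 bases upstream: ctgagaaactaaGATAAaagaggaggtgag
Kel, chr6:41704326-41704355, minus strand, motif 18 bases upstream: tgttccctcactGATAAgcaggctccaccc
Rhag, chr17:40811106-40811135, plus strand, motif 31 bases upstream: agtcctctgctcTTATCaacactatacagc

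The 250 bases before the start of *Rhd*, the gene with the highest ratio, hold 1 such match, and the 250 bases before the first start of *Tfrc* hold none. The window of *Kel*, whose log2 ratio was 0.16, held 2. *Slc4a1* and *Ank1*, which were higher in Smchd1MommeD1/MommeD1 embryos, had no window. Whether the matches go with the ratios was not tested. The letters CCNCNCCC, which resemble the sites of the erythroid factor KLF1 and of other factors of its family, matched 5 times on the 2 strands in the 300-base window of *Tfrc* with that start and 1 time in that of *Rhd*, where 49.5% of all windows held them. A match is a run of letters and not a measured binding site.
Rhd, chr4:134864286-134864535, plus strand: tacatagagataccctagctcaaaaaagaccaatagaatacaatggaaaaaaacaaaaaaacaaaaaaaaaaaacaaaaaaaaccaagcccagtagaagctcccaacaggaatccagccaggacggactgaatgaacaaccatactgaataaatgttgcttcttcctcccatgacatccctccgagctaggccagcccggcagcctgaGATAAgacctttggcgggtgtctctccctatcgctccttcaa
Tfrc, chr16:32608646-32608895, plus strand: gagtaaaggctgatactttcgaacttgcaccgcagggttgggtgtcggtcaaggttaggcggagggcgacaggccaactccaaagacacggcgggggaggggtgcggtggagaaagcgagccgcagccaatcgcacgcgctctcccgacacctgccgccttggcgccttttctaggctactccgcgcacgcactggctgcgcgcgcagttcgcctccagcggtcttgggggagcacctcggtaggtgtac

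The second set comes from transcripts. Iron regulatory proteins bind a hairpin called the iron-responsive element, which protects the *Tfrc* transcript when iron is scarce and blocks translation of the ferritin transcripts. GENCODE M21 transcripts (GRCm38) were searched for a C, 5 bases, a loop of CAGTGN or CAGAGN and 5 bases able to pair with the first 5. The longest *Tfrc* transcript, of 4890 bases, held 5 such hairpins, all in the 3′ UTR, and those of the other 8 genes held none by this pattern. A hairpin with an extra unpaired base would be missed, so the lack of a match does not show that a gene has no such element. Of 21877 protein-coding genes, 2.67% had at least 1 in their longest transcript and 2 genes had 3 or more. The ferritin genes *Fth1* and *Ftl1* held 1 each, in the 5′ UTR, as did *Alas2* and *Slc40a1*, which are not printed. The loop is in capitals.
Fth1, 5′ UTR, chr19:9982732-9982761, plus strand: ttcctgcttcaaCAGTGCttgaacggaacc
Ftl1, 5′ UTR, chr7:45459778-45459807, minus strand: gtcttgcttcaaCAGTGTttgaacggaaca
Tfrc, 3′ UTR, chr16:32631160-32631189, plus strand: atttatcagtgaCAGAGTtcactataaata
Tfrc, 3′ UTR, chr16:32631219-32631248, plus strand: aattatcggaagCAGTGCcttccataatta
Tfrc, 3′ UTR, chr16:32631598-32631627, plus strand: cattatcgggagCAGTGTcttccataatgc
Tfrc, 3′ UTR, chr16:32631663-32631692, plus strand: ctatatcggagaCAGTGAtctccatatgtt
Tfrc, 3′ UTR, chr16:32631710-32631739, plus strand: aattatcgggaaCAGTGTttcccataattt

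*Slc4a1* encodes band 3, the chloride and bicarbonate exchanger that is the most abundant protein of the red cell membrane. It lies on chromosome 11 of mm10 from 102348820 to 102365281. It was at 35.6 FPKM in Smchd1MommeD1/MommeD1 and 21.5 FPKM in wildtype embryos, a log2 ratio of 0.73, or 1.65-fold. Loci of like mean FPKM had a central range from -0.25 to 0.25, so *Slc4a1* stood well outside it. It was the second highest of the 9 genes in both genotypes.

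*Ank1* encodes erythroid ankyrin, which links band 3 to spectrin. Its locus on chromosome 8 runs from 22974882 to 23150496. It was at 3.01 and 1.88 FPKM, a log2 ratio of 0.65, within the range from -0.44 to 0.75 of loci with like means. At 1.57-fold it was the member closest above the 1.5-fold limit. The ratio of *Slc4a1* to *Ank1* within a genotype was 11.8 in Smchd1MommeD1/MommeD1 and 11.4 in wildtype embryos. The RNA levels of these genes thus stood in nearly the same proportion in both, and protein was not measured in these data. The antisense gene *Gm15816* overlaps exons of *Ank1*, and the libraries were nondirectional, so reads of both strands cannot be told apart there.

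*Rhag* encodes the Rh-associated glycoprotein, an ammonia channel subunit that the other Rh protein needs to reach the membrane. It lies on chromosome 17 from 40811149 to 40840862 and was at 4.31 FPKM in Smchd1MommeD1/MommeD1 and 2.40 FPKM in wildtype embryos. The log2 ratio was 0.82, or 1.76-fold, above the central range of -0.42 to 0.62 of loci with like means. *Smchd1* lies on the same chromosome, from 71344415 to 71475343. Whether the genotypes differ in strain alleles at *Rhag* was not tested. *Rhd*, the mouse gene for the Rh blood group protein, lies on chromosome 4 from 134864536 to 134896175. It was at 3.34 and 1.499 FPKM, a log2 ratio of 1.10, or 2.15-fold, where loci of like mean ranged from -0.44 to 0.75. *Rhd* was the one member that was at least 2-fold higher, as were 0.979% of all loci, and none was 2-fold lower, as were 0.514%. The ratio of *Rhag* to *Rhd* was 1.29 in Smchd1MommeD1/MommeD1 and 1.60 in wildtype embryos, and the 2 genes, which are related but lie on different chromosomes, were close in level in both.

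*Kel* encodes the Kell blood group glycoprotein, an endopeptidase of the cell surface that is joined to the protein of *Xk*. It lies on chromosome 6 from 41686330 to 41704325 and was the lowest of the 9 genes, at 1.32 FPKM in Smchd1MommeD1/MommeD1 and 1.17 FPKM in wildtype embryos. Its log2 ratio was 0.16, inside the wide range from -0.59 to 0.94 of loci at that level. *Xk* was at 2.09 and 1.90 FPKM, and the ratio of *Kel* to *Xk* was 0.629 and 0.616.

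*Tfrc* encodes the transferrin receptor, which is used by all dividing cells and most of all by red cell precursors. The locus, on chromosome 16 from 32608896 to 32632794, had the highest level of the 9 genes. It was at 60.0 FPKM in Smchd1MommeD1/MommeD1 and 60.1 FPKM in wildtype embryos, a log2 ratio of -0.0038. The sign of this ratio changed with the scaling, within a range from -0.06 to 0.04. The ratio of *Tfrc* to *Slc4a1* was 1.69 in Smchd1MommeD1/MommeD1 and 2.80 in wildtype embryos.

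*Steap3* encodes the ferrireductase of the erythroid endosome. The locus is on chromosome 1 from 120226416 to 120271082, and the gene was at 4.103 and 2.75 FPKM, a log2 ratio of 0.56, or 1.48-fold. It was the member closest below the 1.5-fold limit, and its ratio lay inside the range from -0.42 to 0.62 of loci with like means. It had the highest ratio of the 4 iron genes.

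*Slc11a2* encodes DMT1, which carries the reduced iron out of the endosome. It lies on chromosome 15 from 100387900 to 100423055 and was at 13.2 FPKM in Smchd1MommeD1/MommeD1 and 13.5 FPKM in wildtype embryos, a log2 ratio of -0.04 that ran from -0.09 to 0.01 under other scalings. *Slc25a37* encodes mitoferrin 1, the importer of iron into the mitochondria of red cell precursors. It lies on chromosome 14 from 69241845 to 69285103 and was at 16.8 and 15.5 FPKM, a log2 ratio of 0.12. Both ratios were inside the ranges of loci with like means, from -0.27 to 0.33 for *Slc11a2* and from -0.27 to 0.31 for *Slc25a37*. The antisense gene *Gm5475* overlaps exons of *Slc11a2*, and *Gm27223* and *Gm31748* overlap those of *Slc25a37*. *Alas2*, the erythroid enzyme that starts heme synthesis, was at 29.3 and 14.1 FPKM, so the ratio of *Slc25a37* to *Alas2* was 0.573 in Smchd1MommeD1/MommeD1 and 1.09 in wildtype embryos.

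The order of the 9 genes by level was *Tfrc*, *Slc4a1*, *Slc25a37*, *Slc11a2*, *Rhag*, *Steap3*, *Rhd*, *Ank1* and *Kel* in Smchd1MommeD1/MommeD1 embryos. In wildtype embryos *Steap3* stood above *Rhag* and *Ank1* above *Rhd*. Without a spread between embryos it cannot be said which of these neighbours differed.

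**Figure D2:**
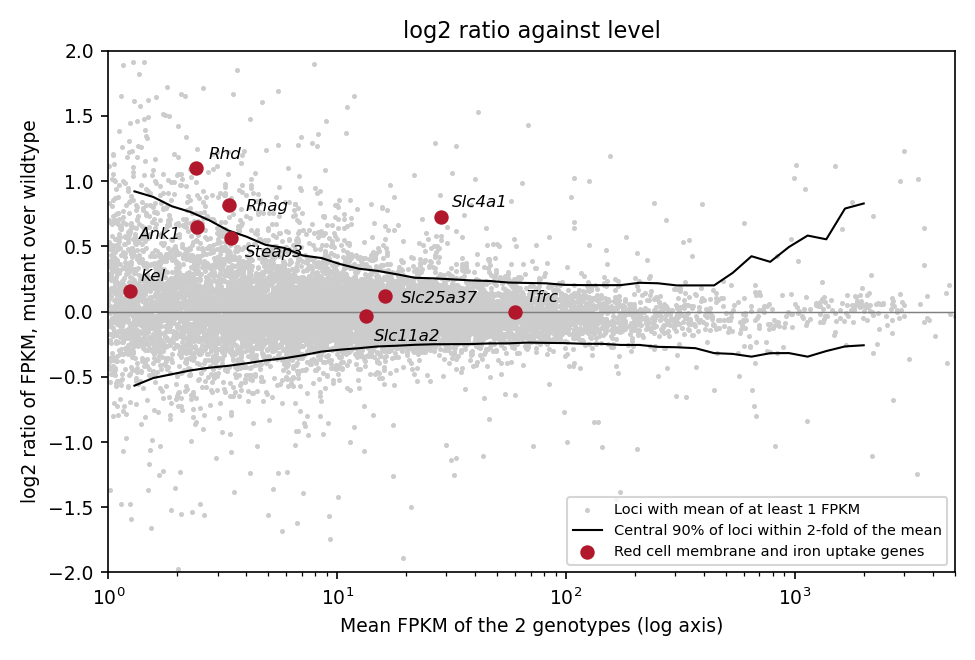
Log2 ratio of FPKM, Smchd1MommeD1/MommeD1 over wildtype, against the mean FPKM of both genotypes on a log axis, with grey points for loci whose mean reached 1 FPKM, black lines for the central 90% of loci of like mean, and red points for the 9 genes. *Slc4a1*, *Rhag* and *Rhd* lie above the upper line, the other 6 genes lie between the lines, and 23 of 12463 loci fall outside the axis from -2 to 2.

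Other genes of the red cell membrane had ratios on both sides of 0. Of 22 listed, 20 were in the table and 18 had a mean of at least 1 FPKM. Of these, 13 had a log2 ratio above 0, as did 48.2% of all loci, and 5 had one below it. By fold, 6 were at least 1.5-fold higher in Smchd1MommeD1/MommeD1 embryos, as were 3.51% of all loci. None was lower by that fold, as were 1.47% of all loci, and 12 were neither. Of the 6, *Epb42* only just passed the limit, at 1.5003-fold. The median log2 ratio of the list was 0.12. The highest ratios were those of *Icam4*, an adhesion molecule of red cells and their precursors, at 1.95 and 0.968 FPKM (log2 ratio 0.94), *Add2*, which encodes beta adducin of the membrane skeleton, at 5.69 and 3.12 FPKM (0.85), and *Gypc*, which encodes glycophorin C, at 10.9 and 6.55 FPKM (0.72).

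The lowest ratios of this list were those of *Slc2a1*, *Bsg*, *Tmod1* and *Cd47*. *Slc2a1*, the gene for the glucose transporter GLUT1, was at 209 FPKM in Smchd1MommeD1/MommeD1 and 294 FPKM in wildtype embryos (log2 ratio -0.49). *Bsg*, which encodes basigin, was at 255 and 276 FPKM (-0.11). *Tmod1*, which encodes a cap of the short actin filaments, was at 2.91 and 3.14 FPKM (-0.11), and *Cd47*, the "do not eat me" signal of the cell surface, was at 5.83 and 6.29 FPKM (-0.11).

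Other genes of iron uptake and delivery lay around 0. Of 13 listed genes with 14 entries, 11 entries of 10 genes had a mean of at least 1 FPKM, with 1 at least 1.5-fold higher, 1 at least 1.5-fold lower and a median log2 ratio of -0.04. The sign of this median turned, to 0.10 without a limit on the mean and to 0.070 with a mean of at least 5 FPKM. *Trf*, the gene for transferrin, was at 4.43 FPKM in Smchd1MommeD1/MommeD1 and 2.60 FPKM in wildtype embryos (log2 ratio 0.75). *Abcb10*, a mitochondrial transporter that stabilises mitoferrin, followed at 16.5 and 13.1 FPKM (0.34), and *Slc39a8*, which encodes a metal importer, at 15.2 and 12.5 FPKM (0.28). The lowest was the less abundant of the 2 entries of *Exoc6*, a gene for vesicle tethering in transferrin recycling, at 0.830 and 1.48 FPKM (-0.76), while its other entry, which shares the locus, was at 5.14 and 5.37 FPKM. The ferrireductase relatives *Steap1*, at 3.31 and 4.37 FPKM (-0.39), and *Steap2*, at 1.35 and 1.66 FPKM (-0.28), were lower in Smchd1MommeD1/MommeD1 embryos. *Tfr2*, a second transferrin receptor, was below the limit at 0.501 and 0.278 FPKM.

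None of the 12 measured genes of iron storage, export and sensing (13 listed) differed by 1.5-fold, and their median log2 ratio was -0.0020. The ferritin subunits were the most abundant, with *Ftl1* at 1416 and 1212 FPKM (log2 ratio 0.22) and *Fth1* at 505 and 470 FPKM (0.10), followed in ratio by *Pcbp1*, an iron chaperone, at 0.04. *Heph*, which encodes a ferroxidase (-0.18), *Ireb2*, which encodes an iron regulatory protein that binds the hairpins above (-0.16), and *Fbxl5*, which encodes its iron-sensing ubiquitin ligase subunit (-0.13), were lowest.

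**Figure D3:**
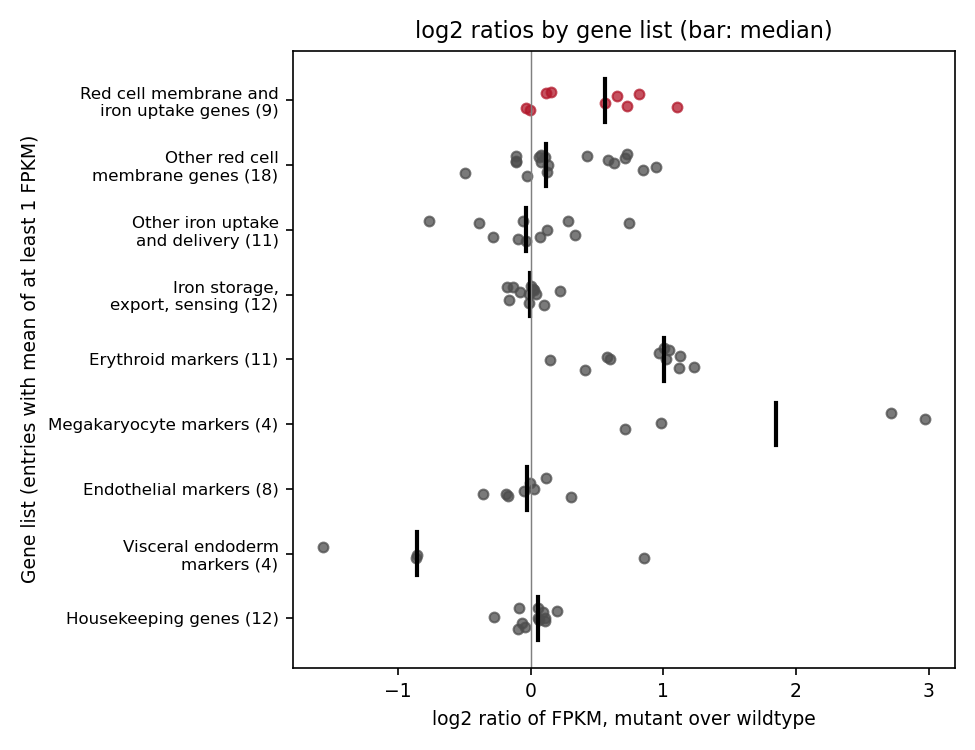
Log2 ratio of FPKM, Smchd1MommeD1/MommeD1 over wildtype, for each entry with a mean of at least 1 FPKM, by gene list, with the number of entries in brackets and a bar at the median. The 9 genes (red) run from -0.04 to 1.10, partly below the erythroid markers, whose median is 1.003, and the housekeeping genes lie about 0.06.

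Erythroid markers also had higher pooled values in Smchd1MommeD1/MommeD1 embryos. All 11 entries of 10 markers in the table (11 listed, *Ahsp* not matched) had ratios above 0, from 0.15 for *Tal1* to 1.23 for *Hbb-y*. Their summed level was 16146 FPKM in Smchd1MommeD1/MommeD1 and 7598 FPKM in wildtype embryos, of which the globins made up most. Set against the erythroid median of 1.003, the log2 ratio was higher by 0.10 for *Rhd*, lower for the other 8 genes, by differences of -0.18 for *Rhag*, -0.28 for *Slc4a1* and -0.35 for *Ank1*, and lowest for *Tfrc* (-1.01) and *Slc11a2* (-1.04). Against the median of 0.59 of the 6 markers that are not globins, these turned round to 0.23 for *Rhag*, 0.14 for *Slc4a1* and 0.06 for *Ank1*, while *Tfrc* (-0.59) and *Slc11a2* (-0.62) stayed below.

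Markers of other cell types were examined too. All 8 megakaryocyte markers had ratios above 0, with a summed level of 29.6 FPKM in Smchd1MommeD1/MommeD1 and 11.2 FPKM in wildtype embryos, and all 12 macrophage markers did, with 3.96 and 1.92 FPKM and with *Ptprc* listed at 0 in wildtype embryos. Of these lists, 4 megakaryocyte markers and 1 macrophage marker, *Cd68*, reached a mean of 1 FPKM. The entry of *Gp1bb*, 1 of these 4 megakaryocyte markers, is a locus shared with *Sept5*. It was the largest part of the megakaryocyte sum, at 13.4 FPKM in Smchd1MommeD1/MommeD1 and 8.14 FPKM in wildtype embryos. Among the 7089 loci with a mean above 0 and under 1 FPKM, 56.4% had a ratio above 0. The 8 endothelial markers summed to 89.1 and 91.4 FPKM (median log2 ratio -0.03). Of 8 visceral endoderm markers 1, *Afp*, was above 0, and they summed to 26.0 and 33.9 FPKM, or 11.3 and 25.8 FPKM without *Afp*. Of the 4 that reached a mean of 1 FPKM, 3 were at least 1.5-fold lower and *Afp* was higher by that fold, with a median log2 ratio of -0.86. Of 5 trophoblast markers 3, *Prl3d1*, *Prl2c2* and *Tpbpa*, were listed at 0 in both genotypes, and the list summed to 3.14 and 3.71 FPKM, nearly all from *Plac1*. The part of these cells in the values of the 9 genes was not tested. The 12 housekeeping genes had a median log2 ratio of 0.06, and none differed by 1.5-fold.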

How the data were processed

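The samples were 6 male embryos at E9.5, placed in groups by labelled genotype. Reads were mapped by the submitters to mm10 with TopHat2 2.0.6 and Bowtie2 2.0.2, and genotypes were compared with Cufflinks and Cuffdiff 2.0.2 (submitters' processing notes). The annotation release is not given in the sources used here. The authors deposited 1 pooled FPKM value per genotype and locus. Their own log2 fold changes, test statistics, p-values and q-values are in the same table and were not used. The depth is unknown and no interval was computed. The columns were assigned to genotypes by the names in the authors' copy of the table.

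Log2 ratios were computed with 0.1 FPKM added, over loci whose mean reached 1 FPKM where a list or all loci are summarised. Locus starts are counted from 1 (8975 of 20271 starts then equalled RefSeq, against 572 as listed). Named genes were all 9 members, and the 3 highest and 3 lowest of the 3 further membrane and iron lists, with *Cd47* added as a near tie, and *Xk*, *Alas2* and *Tfr2* for comparison and single genes of the cell marker lists, chosen after their values were seen. *Epb42* was named because it lay at the fold limit. The members and lists were chosen with earlier results of these data known. Alternatives were other pseudocounts, filters, scalings and folds. The steps were tested on simulated data. Python 3.11.15, numpy 2.4.6, pandas 2.3.3 and matplotlib 3.10.9 were used.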

Additional observations from a re-analysis of the deposited data

How the results depend on the processing

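No paired analysis was possible because the table holds 1 pooled value per genotype, and for the same reason no embryo could be left out in turn. Depth limits could not be set. Across other pseudocounts and scalings, the log2 ratio stayed between 0.80 and 1.15 for *Rhd*, 0.64 and 0.86 for *Rhag*, 0.67 and 0.77 for *Slc4a1*, 0.48 and 0.69 for *Ank1* and 0.45 and 0.60 for *Steap3*. *Tfrc* ran from -0.06 to 0.04 and *Slc11a2* from -0.09 to 0.01, so neither kept its sign. With 1 FPKM added to each value the median over the 9 genes was 0.45. With a mean of at least 5 FPKM, which leaves 4 of the 9 genes, it was 0.056, and 1 gene, *Slc4a1*, was at least 1.5-fold higher. At a limit of 2-fold 1 gene was higher. The count was 3 with 1 FPKM added, without *Ank1*, and 5, with *Steap3*, when FPKM was rescaled to the same total over all loci, but 4 when only named loci of 200 bp or more were summed. The median of the other iron uptake and delivery genes was 0.10 without a filter and 0.070 with a mean of at least 5 FPKM, on the other side of 0 from the value reported. The remaining 28 of 32 recomputed medians of gene lists moved by less than 0.1.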

Other observations

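Relatives of the 9 genes were looked up after the values above had been seen. *Tfr2*, *Slc25a28*, *Steap1*, *Steap2* and *Steap4* among them are also in the list of other iron uptake and delivery genes. *Slc11a1* is also a macrophage marker above, so the relatives are not a set separate from those lists. Of 14 such genes, 9 had a mean of at least 1 FPKM, none of these differed by 1.5-fold in either direction, and their median log2 ratio (Smchd1MommeD1/MommeD1 over wildtype, with 0.1 FPKM added) was -0.03. Among the ankyrins, *Ank2* was at 5.22 FPKM in Smchd1MommeD1/MommeD1 and 4.202 FPKM in wildtype embryos (log2 ratio 0.31) and *Ank3* at 12.7 and 12.8 FPKM (-0.01). The anion exchanger genes *Slc4a2*, at 10.9 and 9.56 FPKM (0.19), and *Slc4a3*, at 1.83 and 1.89 FPKM (-0.04), lay below *Slc4a1* in level and in ratio. The mitoferrin gene *Slc25a28*, which is expressed in many tissues, was at 8.25 and 7.85 FPKM (0.07), and the ratio of *Slc25a37* to it was 2.03 in Smchd1MommeD1/MommeD1 and 1.97 in wildtype embryos. The endopeptidase genes *Mme* and *Ece1*, related to *Kel*, had log2 ratios of -0.03 and -0.24. The Rh relatives *Rhbg*, at 0.291 and 0.0932 FPKM, and *Rhcg*, at 0.0517 and 0.0529 FPKM, were below the limit. *Mir486*, whose gene lies inside the *Ank1* locus, was listed at 0 in both genotypes. That value does not show that the microRNA is absent, since whether these libraries capture so short an RNA was not tested.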
